A study of Mus musculus with 6 samples.

Results

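The mitochondrial carrier family was examined in primary hepatocytes of the mouse, the main metabolic cells of liver, held in culture. Its members were taken by symbol, as every gene named Slc25a with a number plus Ucp1, Ucp2, Ucp3, Mtch1 and Mtch2. Of 22609 gene rows, 49 carried such a symbol, and 42 of these had 10 or more counts in at least 3 libraries and are described here. The hepatocytes came from male wild-type C57BL/6 mice aged 4 months. For 16 h they received either 20 µg/mL LRG1 protein, a secreted leucine-rich glycoprotein, or phosphate-buffered saline (PBS) as the control treatment, with 3 samples in each group. Whether replicates are separate animals or dishes is not stated in the labels, so every p-value here covers the spread among these 6 samples and no more, and that spread may be technical.

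The carriers are small proteins of the inner mitochondrial membrane that move metabolites, nucleotides, ions and cofactors between cytosol and matrix. In hepatocytes they connect pathways that are divided between these compartments, among them the urea cycle, gluconeogenesis, fatty acid synthesis from exported citrate and the malate-aspartate shuttle, which carries reducing equivalents. A few relatives sit in the outer membrane or in peroxisomes.

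Library totals in genes ran from 19670496 to 23036332 counts with LRG1 and from 18625748 to 19774537 with PBS. No library stood apart. The Pearson correlation of log2 CPM (read counts put on a common library size) across genes was 0.995 to 0.996 between replicates and 0.958 to 0.962 between treatments. The 7 hepatocyte markers summed to 21894 to 22802 CPM with LRG1 and 22635 to 23637 CPM with PBS, most of it albumin (Alb). Of these 7, Apoa1, Hnf4a and Cps1 were lower (log2 fold changes -0.62, -0.30 and -2.11), none was higher and 4 did not pass. The summed level of 7 stellate cell and fibroblast markers was 143 to 153 CPM with LRG1 and 44.8 to 46.1 CPM with PBS, with 2 of 6 tested markers higher and 1 lower. Col1a1, a fibrillar collagen, had 104 to 114 CPM with LRG1 and 9.22 to 13.7 CPM with PBS. Lrat, which defines stellate cells, had at most 0.0432 CPM with LRG1 and 0.557 CPM with PBS. The 6 sinusoidal endothelial markers summed to 31.9 to 36.4 CPM with LRG1 and 38.4 to 40.8 CPM with PBS. Of the 5 tested, Stab2 and Lyve1 were lower (log2 fold changes -1.03 and -1.16) and none was higher. The 5 markers of cholangiocytes, the cells of bile ducts, summed to 4325 to 4643 CPM with LRG1 and 4446 to 4630 CPM with PBS. Most of this was Spp1. Of the 3 tested, Krt19 was lower (log2 fold change -2.50), Sox9 was higher (0.68) and Spp1 did not pass. In bulk samples fewer cells of a type and less RNA per cell cannot be told apart. The part of other cell types in the values below was not tested.

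Hepatocytes given LRG1 had less mRNA for the ATP-Mg carrier Slc25a23, the dicarboxylate carrier Slc25a10, the ornithine carrier Slc25a15 and the carriers Slc25a30 and Slc25a47. They had more for the iron importer mitoferrin-1, Slc25a37. Slc25a23 was 2.71-fold lower, Slc25a47 was 2.01-fold lower, Slc25a30 was 1.88-fold lower and Slc25a15 was 1.76-fold lower, while Slc25a37 was 2.05-fold higher (n = 3 per group). Some scarce members also passed with large folds. Slc25a48 was 2.38-fold lower, Slc25a34 2.22-fold lower and Slc25a36 1.97-fold higher, with PBS means of 1.30, 3.24 and 0.944 CPM. Of the 42 members 20 were lower and 8 higher at an adjusted p under 0.05 (edgeR quasi-likelihood test, Benjamini-Hochberg adjustment over all 12301 tested genes). That is 66.7% of the members called, against 51.4% of all tested genes. By direction, 47.6% of the members were lower against 25.8% of all genes, and 19.0% were higher against 25.5%. The median log2 fold change of the members was -0.15, against 0.0093 over all tested genes. Most of the differences were small, since 19 of the 28 called members differed by less than 1.5-fold. Of the other 9, 7 were lower and 2 higher, where 10.6% and 7.49% of all tested genes passed the same fold in those directions. The 3 LRG1 libraries lay entirely below the 3 PBS libraries for 22 members and entirely above them for 10, where 28.6% and 29% of all tested genes did so. That makes 76.2% of members without overlap, against 57.6% of all tested genes.

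**Figure D1:**
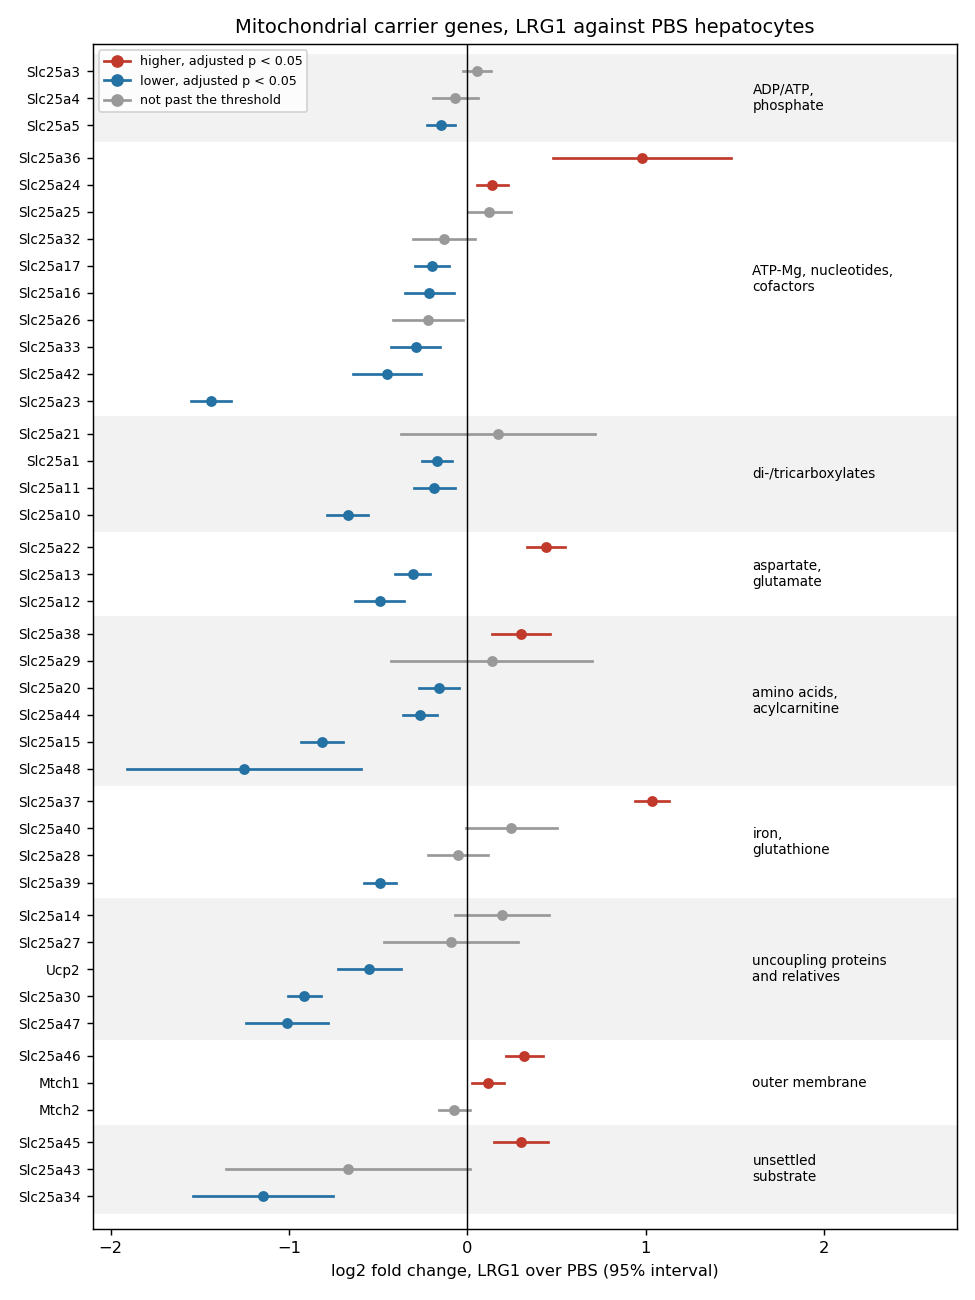
Log2 fold change of each carrier gene reported by name, LRG1 over PBS, with its 95% interval, grouped by the kind of substrate. Red genes were higher and blue genes lower past the threshold, and grey ones did not pass. The lowest point is Slc25a23 at -1.44 and the highest Slc25a37 at 1.04.

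Together the 42 genes held 0.305%, 0.306% and 0.308% of all gene counts in LRG1 replicates 1 to 3, against 0.331%, 0.324% and 0.337% in PBS replicates 1 to 3. The groups did not overlap (0.306 ± 0.00138% with LRG1 and 0.331 ± 0.00640% with PBS, SD, n = 3). Summed over members, mean levels lower with LRG1 came to -523 CPM and those higher to 241 CPM. Slc25a39, at -166 CPM, was the largest item on the lower side, before Slc25a23 at -68.1 CPM and Slc25a30 at -63.2 CPM. On the higher side Slc25a37 alone accounted for 143 CPM.

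Levels of different genes were compared as CPM per kilobase of exon, with exon lengths from GENCODE M21 (GRCm38), which need not match the annotation the authors counted on. Slc25a39, a carrier needed for mitochondrial glutathione import, had the highest level, 245 ± 8.45 with LRG1 and 343 ± 21.4 with PBS (SD, n = 3). Next came the phosphate carrier Slc25a3 at 215 ± 2.08 with LRG1 and 207 ± 7.49 with PBS, then the citrate carrier Slc25a1 at 161 ± 7.85 and 181 ± 4.25 in the same order. The order of these 3 was the same in both groups, with Slc25a5 in place 4. Slc25a37 stood in place 5 among the 42 members with LRG1 and in place 13 with PBS. Slc25a23 went the other way, in place 23 with LRG1 and in place 14 with PBS, and Slc25a10 held place 12 with LRG1 and place 6 with PBS. Places 6 to 9 with PBS were nearly tied, from 48.0 ± 2.24 for Slc25a10 to 47.0 ± 1.62 for Mtch2, so their order is uncertain.

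**Figure D2:**
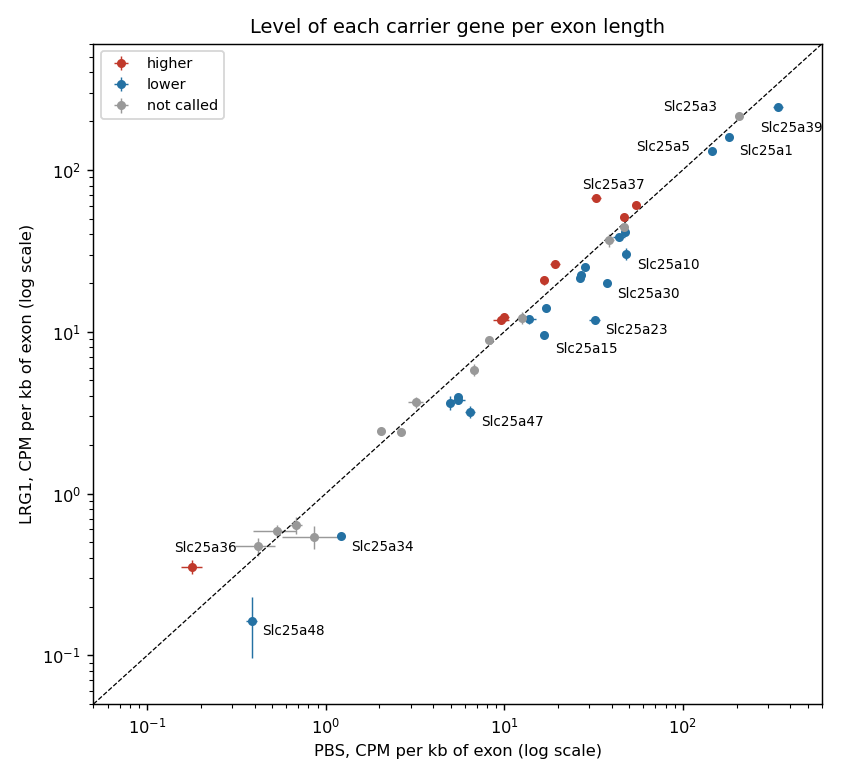
Mean level of each carrier gene reported by name per kilobase of exon, with LRG1 on the vertical axis and PBS on the horizontal axis, both on log scales, with SD bars (n = 3) and a dashed line of equal levels. Red genes were higher, blue lower and grey not past the threshold. Slc25a37 lies above it and Slc25a23, Slc25a30, Slc25a10 and Slc25a15 lie below it.

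Counts by substrate group are to be read against the 25.8% of all tested genes that were lower and the 25.5% that were higher. No group was tested as a set. The ADP/ATP and phosphate carriers, which supply the matrix ATP synthase and export its product, had 1 of 3 members lower (33.3%) and none higher. Slc25a5, the ADP/ATP exchanger of most tissues, fell to 158, 164 and 164 CPM in LRG1 replicates 1 to 3, against 179, 177 and 182 CPM in PBS replicates 1 to 3 (log2 fold change -0.15, SE 0.038, adjusted p = 0.00239). Of the 50-nt windows of its transcript 46.6% also occur in transcripts of 9 other genes, so its level is uncertain. Slc25a4, the exchanger typical of heart and muscle, had 71.2 ± 6.48 CPM with LRG1 and 74.5 ± 5.09 CPM with PBS and did not pass (log2 fold change -0.07, 95% interval -0.19 to 0.06). Slc25a3 had 418 ± 4.04 CPM with LRG1 and 403 ± 14.6 CPM with PBS and did not pass either, with an interval of -0.02 to 0.13.

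Of the 11 carriers of ATP-Mg, nucleotides and cofactors 5 fell (45.5%), 2 rose (18.2%) and 4 did not pass. Slc25a23, Slc25a24 and Slc25a25 exchange ATP-Mg for phosphate in a calcium-dependent way and so set the adenine nucleotide content of the matrix. Slc25a23 fell to 39.3, 39.4 and 40.9 CPM in LRG1 replicates 1 to 3, against 112, 99.5 and 112 CPM in PBS replicates 1 to 3. Every LRG1 library lay far below every PBS library, and the log2 fold change of -1.44 (SE 0.054, adjusted p = 1.87e-16) was the lowest of all 42 members. Slc25a24 rose to 208 ± 7.14 CPM with LRG1, against 189 ± 9.02 CPM with PBS (log2 fold change 0.14, SE 0.042, adjusted p = 0.00757). Slc25a25 had 36.9 ± 1.03 CPM with LRG1 and 33.8 ± 0.868 CPM with PBS, groups that did not overlap, and did not pass the threshold (adjusted p = 0.0823). It passed when libraries were scaled by total counts (adjusted p = 0.0490). A further relative, Slc25a41, had no count in any library, which allows a level of up to 0.0249 CPM over the 6 libraries together, counting error alone.

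Slc25a42, which brings coenzyme A into the matrix, fell to 12.6, 11.9 and 10.3 CPM with LRG1, against 15.8, 15.7 and 16.2 CPM with PBS (log2 fold change -0.45, SE 0.091, adjusted p = 0.000234). Slc25a17, a cofactor carrier of the peroxisomal membrane, had a log2 fold change of -0.20 and Slc25a16 one of -0.21, both past the threshold. Slc25a16 did not pass without LRG1 replicate 2 (adjusted p = 0.0625) or without PBS replicate 2 (adjusted p = 0.0858). The pyrimidine nucleotide carriers went in opposite directions. Slc25a33 fell to 26.4 ± 1.16 CPM with LRG1, against 32.2 ± 1.62 CPM with PBS (log2 fold change -0.29), and Slc25a36 rose to 2.09, 1.77 and 1.76 CPM with LRG1, against 1.01, 1.02 and 0.796 CPM with PBS (log2 fold change 0.98, SE 0.24, adjusted p = 0.00156). Slc25a36 rests on 35 to 42 counts per LRG1 library and 15 to 20 per PBS library, and 11.8% of its windows recur in another transcript. For Slc25a33 the value is 12.6%, and 14.9% of its exon length is overlapped by a gene on the opposite strand. Such overlaps also cover 9.20% of the exon length of Slc25a25, 7.65% of Ucp2, 7.23% of Slc25a26, 6.83% of Slc25a21 and 4.22% of Slc25a23. Whether the counting used the strand is not stated, so reads of such overlapping genes, here and below, cannot be told apart. The carriers of folate (Slc25a32) and S-adenosylmethionine (Slc25a26) did not pass, with log2 fold changes of -0.13 and -0.22. Slc25a26 passed without LRG1 replicate 3 (adjusted p = 0.0249).

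Among carriers of di- and tricarboxylates 3 of 4 members fell (75%). Slc25a10, the dicarboxylate carrier that exchanges malate and succinate for phosphate, fell to 66.9, 58.7 and 57.4 CPM in LRG1 replicates 1 to 3, against 93.1, 96.1 and 102 CPM in PBS replicates 1 to 3. The groups were well apart (log2 fold change -0.67, SE 0.055, adjusted p = 3.69e-10). An annotated gene on the opposite strand overlaps 11.3% of its exon length. Slc25a1, which exports citrate for fatty acid and sterol synthesis, fell to 278, 272 and 253 CPM with LRG1, against 295, 299 and 309 CPM with PBS. That is a log2 fold change of -0.17 (SE 0.041, adjusted p = 0.00141). Slc25a11, the oxoglutarate-malate exchanger of the malate-aspartate shuttle, fell to 66.0 ± 3.07 CPM with LRG1, against 75.1 ± 5.63 CPM with PBS (log2 fold change -0.18, adjusted p = 0.00720), a call lost without LRG1 replicate 3 (adjusted p = 0.0525). The oxodicarboxylate carrier Slc25a21 was scarce, at 1.31 ± 0.169 CPM with LRG1 and 1.15 ± 0.296 CPM with PBS, and did not pass.

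The aspartate-glutamate carriers, the other arm of that shuttle, both fell. Slc25a13, known as citrin and the main form in liver, fell to 64.3, 68.6 and 67.8 CPM with LRG1, against 80.6, 85.4 and 82.2 CPM with PBS (log2 fold change -0.31, SE 0.047, adjusted p = 8.22e-06). Slc25a12, known as aralar, fell to 25.8, 25.0 and 24.2 CPM with LRG1, against 35.1, 33.3 and 37.0 CPM with PBS (log2 fold change -0.49, SE 0.065, adjusted p = 1.00e-06). By contrast the glutamate carrier Slc25a22, which moves glutamate with a proton, rose to 74.9, 77.6 and 75.3 CPM with LRG1, against 55.7, 52.5 and 59.4 CPM with PBS. Its log2 fold change was 0.44 (SE 0.051, adjusted p = 1.09e-07), the highest after Slc25a37 and Slc25a36. Slc25a18, a second glutamate carrier, had no count in any library.

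Slc25a15, which exchanges ornithine for citrulline and so links the matrix and cytosolic steps of the urea cycle, fell to 30.7, 32.9 and 34.7 CPM in LRG1 replicates 1 to 3, against 57.6, 58.5 and 56.7 CPM in PBS replicates 1 to 3. The groups were well separated (log2 fold change -0.81, SE 0.057, adjusted p = 1.92e-11). Its close relative Slc25a2 had 1, 2 and 4 counts with LRG1 and none with PBS, too few to be tested. The branched-chain amino acid carrier Slc25a44 fell to 80.0 ± 2.06 CPM with LRG1, against 96.1 ± 4.83 CPM with PBS (log2 fold change -0.27). Slc25a38, the glycine carrier that feeds heme synthesis, rose to 21.9, 20.8 and 23.6 CPM with LRG1, against 16.6, 18.9 and 18.3 CPM with PBS (log2 fold change 0.30, SE 0.079, adjusted p = 0.00270). Slc25a20, which brings acylcarnitines to the matrix for oxidation, fell to 45.0 ± 1.44 CPM with LRG1, against 50.2 ± 1.97 CPM with PBS (log2 fold change -0.16, adjusted p = 0.0178). This call was lost without LRG1 replicate 1, LRG1 replicate 3 or PBS replicate 3 (adjusted p = 0.0549, 0.0502 and 0.0816). Slc25a48 was lower at 0.551 ± 0.227 CPM with LRG1 against 1.30 ± 0.0955 CPM with PBS (log2 fold change -1.25, SE 0.32, adjusted p = 0.00193), on 7 to 15 counts per LRG1 library and 24 to 26 per PBS library. The basic amino acid carrier Slc25a29 had 1.15 ± 0.103 CPM with LRG1 and 1.05 ± 0.285 CPM with PBS and did not pass.

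Mitoferrins import iron for heme and iron-sulfur clusters, Slc25a37 (mitoferrin-1) mainly in erythroid cells and Slc25a28 (mitoferrin-2) in other tissues. Slc25a37 rose to 268, 279 and 293 CPM in LRG1 replicates 1 to 3, against 145, 128 and 137 CPM in PBS replicates 1 to 3. It was the member with the highest log2 fold change, 1.04 (SE 0.047, adjusted p = 6.27e-15), and no LRG1 library came near a PBS library. Annotated genes on the opposite strand overlap 9.13% of its exon length. Slc25a28 had 18.7 ± 1.59 CPM with LRG1 and 19.4 ± 1.19 CPM with PBS and did not pass, with an interval from -0.22 to 0.12. Slc25a39 fell to 429, 406 and 403 CPM with LRG1, against 581, 541 and 613 CPM with PBS (log2 fold change -0.49, SE 0.044, adjusted p = 1.58e-09). Its relative Slc25a40 had 6.74 ± 0.373 CPM with LRG1 and 5.67 ± 0.287 CPM with PBS, without overlap, and did not pass (log2 fold change 0.25, adjusted p = 0.0999).

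Uncoupling proteins are named for Ucp1, which lets protons back into the matrix and so makes heat in brown fat. Of the 5 measured members grouped here as uncoupling proteins and relatives, 3 fell (60%), none rose and 2 did not pass. The grouping is a listing by role, and kinship by sequence was not tested. Slc25a30, a relative first described in kidney, fell to 71.8, 72.9 and 69.4 CPM in LRG1 replicates 1 to 3, against 134, 130.1 and 139 CPM in PBS replicates 1 to 3 (log2 fold change -0.91, SE 0.044, adjusted p = 2.10e-14). Slc25a47, a carrier found chiefly in liver, fell to 6.52, 5.48 and 6.25 CPM with LRG1, against 11.3, 12.6 and 12.7 CPM with PBS (log2 fold change -1.01, SE 0.11, adjusted p = 4.51e-08). In both genes the highest LRG1 library stayed below the lowest PBS library by a wide gap. Ucp2 fell to 16.0, 14.3 and 14.8 CPM with LRG1, against 24.0, 19.7 and 22.3 CPM with PBS (log2 fold change -0.55, SE 0.085, adjusted p = 8.75e-06). In intact mouse liver Ucp2 is found mainly in Kupffer cells, the resident macrophages. The 6 Kupffer cell markers summed to 179 to 204 CPM with LRG1 and 217 to 262 CPM with PBS, of which 170 to 195 CPM and 210 to 257 CPM were Cd68. Cd68 was lower (log2 fold change -0.36), Marco was higher (0.70) and the other 4 did not pass. Clec4f, a marker specific to these cells, was at 0.806 to 1.10 CPM with LRG1 and 0.485 to 1.06 CPM with PBS. Their part in the Ucp2 value was not tested. Ucp1, the protein of brown fat, and Ucp3, that of muscle, had 2 counts and 1 count over all 6 libraries. Slc25a14 and Slc25a27 did not pass, with log2 fold changes of 0.19 and -0.09.

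**Figure D3:**
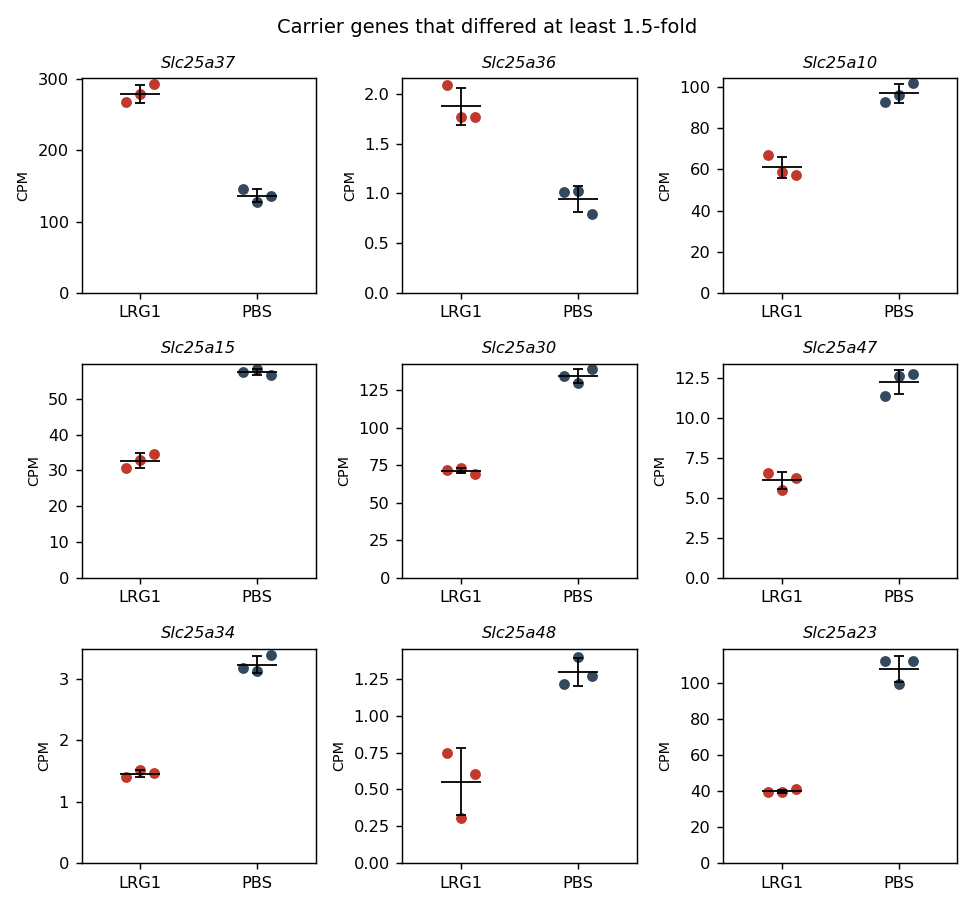
Level in each library (CPM, points), with mean and SD (bars, n = 3), of the 9 carrier genes that passed the threshold and differed at least 1.5-fold, LRG1 at the left and PBS at the right of each panel. In every panel the 3 points of the LRG1 group lie apart from the 3 of the PBS group.

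Promoters are shown for Slc25a23, which had the lowest log2 fold change of all members. They are also shown for Slc25a30 and Slc25a47, the lowest in the group that holds the uncoupling proteins. The sequences are from RefSeq (GRCm38.p6), run 5′ to 3′ on the strand of the gene and cover 300 bases, mostly upstream of an annotated start. For Slc25a23 the more upstream of 2 annotated starts was taken. Capitals mark CAGAC, the SMAD box, and GTCTG, the same letters on the other strand, since LRG1 is known to act on TGF-beta signalling. The Slc25a23 window is chr17:57059814-57060113 (minus strand), that of Slc25a30 chr14:75786988-75787287 (minus strand) and that of Slc25a47 chr12:108850879-108851178 (plus strand).
Slc25a23: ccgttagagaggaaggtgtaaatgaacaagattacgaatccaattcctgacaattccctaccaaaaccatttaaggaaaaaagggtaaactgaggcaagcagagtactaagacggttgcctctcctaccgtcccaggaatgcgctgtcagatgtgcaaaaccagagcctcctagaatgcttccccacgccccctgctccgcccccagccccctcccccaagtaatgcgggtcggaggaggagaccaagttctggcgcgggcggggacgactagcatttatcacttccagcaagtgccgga
Slc25a30: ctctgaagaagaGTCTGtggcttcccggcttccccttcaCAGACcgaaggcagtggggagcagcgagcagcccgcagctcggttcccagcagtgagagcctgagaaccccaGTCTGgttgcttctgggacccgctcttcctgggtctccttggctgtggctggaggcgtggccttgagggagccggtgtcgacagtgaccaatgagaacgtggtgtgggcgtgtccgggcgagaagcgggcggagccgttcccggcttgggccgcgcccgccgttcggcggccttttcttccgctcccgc
Slc25a47: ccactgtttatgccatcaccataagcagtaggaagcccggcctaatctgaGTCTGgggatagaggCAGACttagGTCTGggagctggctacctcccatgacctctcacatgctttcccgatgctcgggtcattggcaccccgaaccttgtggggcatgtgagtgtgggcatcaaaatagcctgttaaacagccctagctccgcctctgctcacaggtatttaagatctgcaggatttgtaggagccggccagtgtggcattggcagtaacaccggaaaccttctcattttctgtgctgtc
There were 3 such matches in the Slc25a30 window, 3 in that of Slc25a47 and 0 in that of Slc25a23. The window of Slc25a40, which did not pass (log2 fold change 0.25), also had 3. Slc25a37, with the highest log2 fold change, had no window. The table held 45 windows for 35 of the 42 members, and 44.4% of them had at least 1 match, against 49.6% of all 32851 windows. A match is a description of letters and not a binding site.

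The outer membrane members are not known as metabolite carriers. Slc25a46, which takes part in mitochondrial fission and contacts with the endoplasmic reticulum, rose to 85.0, 91.7 and 95.9 CPM with LRG1, against 74.4, 72.3 and 71.5 CPM with PBS (log2 fold change 0.32, SE 0.049, adjusted p = 7.21e-06). A gene on the opposite strand overlaps 8.56% of its exon length. Mtch2, which inserts proteins into the outer membrane, had 117 ± 3.56 CPM with LRG1 and 123 ± 4.26 CPM with PBS and did not pass (log2 fold change -0.07). Its relative Mtch1 had 115, 112 and 107 CPM with LRG1, against 105, 101 and 102 CPM with PBS, and passed narrowly (log2 fold change 0.12, SE 0.043, adjusted p = 0.0251). The Mtch1 call was lost under DESeq2 (adjusted p = 0.0610), without LRG1 replicate 1 or 2 (adjusted p = 0.123 and 0.0775) and without PBS replicate 2 or 3 (adjusted p = 0.0790 and 0.0603).

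Of the members whose substrate was not settled, Slc25a34 fell to 1.39, 1.51 and 1.46 CPM with LRG1, against 3.19, 3.13 and 3.40 CPM with PBS (log2 fold change -1.15, SE 0.19, adjusted p = 1.93e-05). Slc25a45 rose to 32.1 ± 1.40 CPM with LRG1, against 26.1 ± 2.56 CPM with PBS (log2 fold change 0.30, adjusted p = 0.00132). Slc25a43 did not pass on 10 to 14 counts per LRG1 library and 11 to 24 per PBS library (log2 fold change -0.67), though it passed without PBS replicate 2 (adjusted p = 0.0273). Slc25a35 fell just outside the rule, with 6, 5 and 6 counts with LRG1 and 6, 11 and 14 counts with PBS. Slc25a48 had 10 or more counts in 5 libraries, but it met the rule only through the PBS group. Its 24, 26 and 24 counts with PBS would meet the rule alone, and its 15, 7 and 12 with LRG1 would not. Its place among the lower members counted above therefore depends in part on the rule. Slc25a31, an ADP/ATP exchanger of the testis, had 8 counts in all. The RefSeq table gives Slc25a51 and Slc25a53 as current names of rows deposited under Mcart1 and Mcart6, which the symbols above do not cover. Mcart1 was lower with LRG1, at 56.2 ± 2.67 CPM against 65.9 ± 2.59 CPM with PBS (log2 fold change -0.23, adjusted p = 0.000644).

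Ratios of related carriers within a library do not depend on how libraries are scaled. For 10 pairs in which both genes were described above, the count ratio was compared between treatments with a two-sided exact permutation test over the 6 samples, whose smallest possible p is 0.1. The Slc25a24 to Slc25a23 ratio was 5.09, 5.33 and 5.23 in LRG1 replicates 1 to 3, against 1.63, 2.0 and 1.64 in PBS replicates 1 to 3 (exact p = 0.1). Iron importers shifted toward mitoferrin-1, with a Slc25a37 to Slc25a28 ratio of 13.2, 14.9 and 17.1 with LRG1, against 7.12, 7.06 and 6.95 with PBS (exact p = 0.1). The Slc25a33 to Slc25a36 ratio was 11.9, 14.7 and 15.4 with LRG1, against 30.6, 32.4 and 37.6 with PBS. Lower ratios with LRG1 were also seen for Slc25a39 to Slc25a40 (56.1 to 64.5 with LRG1 against 90.0 to 108 with PBS) and for Slc25a10 to Slc25a11 (0.875 to 0.978 with LRG1 against 1.23 to 1.36 with PBS). Mtch1 to Mtch2 was higher, at 0.884 to 0.995 with LRG1 against 0.803 to 0.855 with PBS. These 6 of the 10 pairs did not overlap between groups and reached the smallest p the design allows. Among single genes 57.6% of all tested genes did not overlap. The share over other gene pairs was not computed, so the count of pairs is a description only. In the other 4 pairs the groups overlapped. They included Slc25a12 to Slc25a13 (0.357 to 0.402 with LRG1 and 0.390 to 0.451 with PBS, exact p = 0.2) and Slc25a4 to Slc25a5 (0.409 to 0.475 with LRG1 and 0.392 to 0.448 with PBS, exact p = 0.4).

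**Figure D4:**
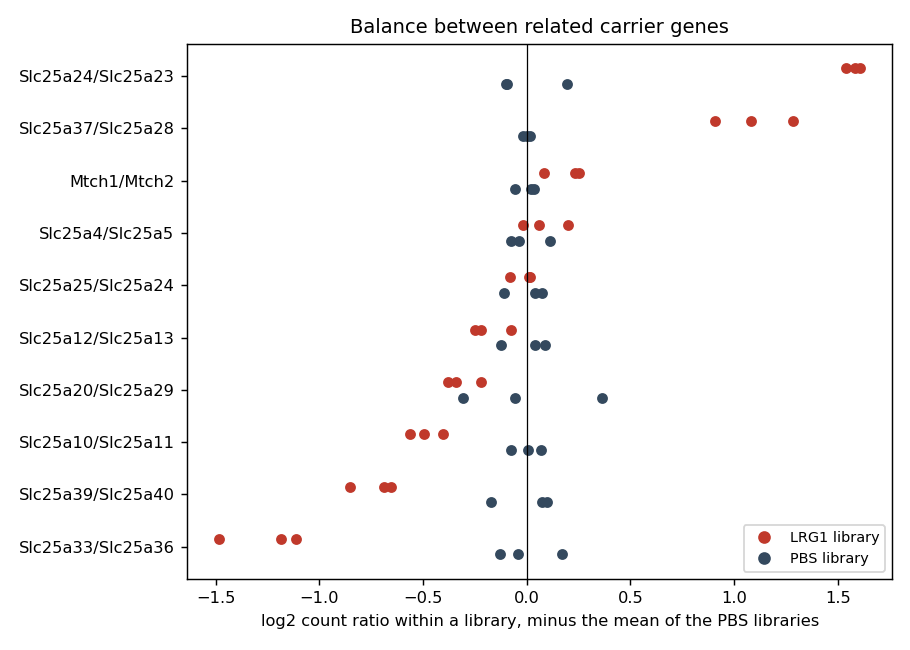
Log2 ratio of the counts of 2 related carrier genes in each library, less the mean of the 3 PBS libraries for that pair. Each point is a library. The Slc25a24 to Slc25a23 and Slc25a37 to Slc25a28 ratios lie right of 0 in all LRG1 libraries, and those of Slc25a33 to Slc25a36, Slc25a39 to Slc25a40 and Slc25a10 to Slc25a11 lie left of it.

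Genes that work beside the carriers were counted in 8 lists, to be read against the 25.8% of all tested genes that were lower and the 25.5% that were higher. Among enzymes of the malate-aspartate, citrate and glycerol phosphate shuttles, 11 of 13 fell (84.6%), none rose and 2 did not pass, with a median log2 fold change of -0.22. Cytosolic glycerol-3-phosphate dehydrogenase, Gpd1, fell to 44.5 ± 2.11 CPM with LRG1, against 158 ± 8.63 CPM with PBS. Idh1, the cytosolic isocitrate dehydrogenase, and Me1, the cytosolic malic enzyme, had log2 fold changes of -0.55 and -0.37. In the list of the carnitine shuttle and acyl-CoA entry 6 of 7 tested genes fell (85.7%) and 1 did not pass (median -0.37). Crot, a peroxisomal carnitine acyltransferase, had a log2 fold change of -1.38, and Cpt1a, which makes the acylcarnitines that Slc25a20 carries, one of -1.11.

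Of 8 genes of the urea cycle and ornithine metabolism 5 fell (62.5%), 2 rose (25%) and 1 did not pass (median -0.37). Cps1, the entry enzyme of the cycle, fell to 8.44 ± 1.58 CPM with LRG1, against 36.3 ± 2.81 CPM with PBS. Asl, which splits argininosuccinate, had a log2 fold change of -0.59. Otc, the matrix enzyme that uses the ornithine brought in by Slc25a15, fell to 6.73 ± 0.857 CPM with LRG1, against 14.4 ± 0.624 CPM with PBS. Arg1, which makes ornithine in the cytosol, rose to 9.39 ± 1.26 CPM with LRG1, against 5.54 ± 0.425 CPM with PBS. Of the 2 genes that rose, only Arg1 had groups that did not overlap. Cps1, Otc and Arg1 were scarce in both groups, where Alb stood at 18141 to 19737 CPM. For pyruvate entry 6 of 9 genes fell (66.7%), 1 rose (11.1%) and 2 did not pass (median -0.39). Pcx, which turns pyruvate to oxaloacetate, had a log2 fold change of -0.71. Brp44l, a subunit of the mitochondrial pyruvate carrier now named Mpc1 and named here after its values were seen, fell to 4.33 ± 0.263 CPM with LRG1, against 8.37 ± 0.331 CPM with PBS. The kinases that inhibit pyruvate dehydrogenase went in opposite directions. Pdk1 fell to 23.5 ± 0.535 CPM with LRG1, against 51.9 ± 5.11 CPM with PBS, and Pdk2 fell to 15.5 ± 2.42 CPM with LRG1, against 32.0 ± 3.05 CPM with PBS, while Pdk4 rose to 43.9 ± 2.33 CPM with LRG1, against 26.3 ± 1.19 CPM with PBS. In the list of heme and iron-sulfur genes, which use the iron that mitoferrins import, 5 of 11 fell (45.5%), none rose and 6 did not pass (median -0.17). Ferrochelatase, Fech, had a log2 fold change of -0.38.

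Lists for the machinery of mitochondria had medians nearer 0. Among outer membrane channels and import receptors 3 of 11 genes fell (27.3%), 1 rose (9.09%) and 7 did not pass (median -0.08), so that the share that fell was near that of all genes. Vdac1, the main channel of the outer membrane, fell to 160.2 ± 5.02 CPM with LRG1, against 207 ± 3.27 CPM with PBS, and Tspo rose to 363 ± 9.13 CPM with LRG1, against 268 ± 12.8 CPM with PBS. Of 7 genes for the import of carriers into the inner membrane 2 fell (28.6%), 1 rose (14.3%) and 4 did not pass, and here too the share that fell was near that of all genes. The gene that rose was Timm22, the channel that inserts carrier proteins, at 36.5 ± 2.38 CPM with LRG1 against 26.7 ± 0.967 CPM with PBS (log2 fold change 0.45, adjusted p = 3.64e-06). Of 9 regulators of mitochondrial biogenesis 2 rose (22.2%), near the share of all genes, none fell and 7 did not pass, with a median of -0.02. Gabpa and Pprc1 had log2 fold changes of 0.11 each. Nrf1, a transcription factor of nuclear genes for mitochondria, did not pass (log2 fold change 0.11), and Ppargc1a, the coactivator known for driving mitochondrial genes, did not pass either, at 6.05 ± 0.537 CPM with LRG1 and 6.98 ± 0.839 CPM with PBS.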

How the data were processed

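The authors deposited raw counts of reads by gene symbol, with a file for each library. Bcl2fastq, TopHat2, HTSeq and mm9 are named in the submitters' processing notes. The sources used here give no tool version, annotation, strand setting or handling of multiple alignments. The last 5 rows of each deposited file are summary rows and stayed out of library sizes and tests. Non-unique alignments were 58.2 to 59.3% of all row totals, and reads in no gene 8.96 to 10.3% of unique ones, so counts of genes that have close copies may be too low.

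From the counts, edgeR 4.0.16 (R 4.3.3) was run with filterByExpr (minimum count 10), TMM and its quasi-likelihood test on treatment alone over all 12301 tested genes. All 42 members passed this filter. Benjamini-Hochberg adjusted p-values under 0.05 count as called. SE come from the F statistic, and intervals are at 95% and unadjusted. CPM use TMM-scaled library sizes. The pipeline was tested on simulated counts in which far fewer genes differed than were called here. That test does not show how it behaves when so many genes differ. Ratios within a library used counts plus 0.5. Exon lengths, strand overlaps and 50-nt windows were taken from GENCODE M21 (GRCm38), not the authors' build, and without a genome sequence.

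Full statistics were meant for called members that differed at least 1.5-fold and for the highest levels. Partner lists are counted, and the genes named come from the 4 with the smallest p in each, not always all of them. Brp44l was added afterwards. Members, lists and rules were chosen with earlier results of these data known. Alternatives were other scalings and filters, DESeq2 1.42.0, limma 3.58.1 with voom, a replicate block and each library left out. No pairing by replicate number was seen in the counts, and whether same-numbered samples share a source is not stated in the labels. The values of 1 member that counts among the 42 are not reported here.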

Additional observations from a re-analysis of the deposited data

How the results depend on the processing

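No count of called genes moved by more than 1.5 times. Over the 8 settings that kept all libraries, 7 to 9 carrier genes were higher and 20 lower with LRG1, and 5519 to 6592 genes were called in all. With each library left out in turn the counts were 7 to 8 higher, 19 to 20 lower and 5630 to 6015 in all. Of 28 called members 24 stayed past the threshold under all 14 alternatives. The exceptions were Mtch1, Slc25a11, Slc25a16 and Slc25a20, whose values stand beside their results, and the cause was not tested. No called member changed sign. Changes of sign occurred in 4 members that had not passed, each with a library left out. Over those settings the log2 fold change of Slc25a21 ran from -0.022 to 0.28, that of Slc25a27 from -0.16 to 0.0056, that of Slc25a28 from -0.12 to 0.0064 and that of Slc25a29 from -0.058 to 0.34. The log2 change of the Slc25a25 to Slc25a24 ratio ran from -0.074 to 0.019. No other ratio changed sign, with a pseudocount of 5 or with a library left out. No scaling moved the median of all genes by more than 0.016 (log2). Same-numbered samples did not deviate together (r = -0.12, -0.01 and -0.12), and 0 of 6 libraries correlated best with their own number. With the replicate block 5890 genes were called, and 8 carriers were higher and 20 lower, as without it. Members under about 2 CPM, such as Slc25a48, Slc25a36, Slc25a29, Slc25a21 and Slc25a43, rest on few counts and have wide intervals.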
